A study of Mus musculus with 9 samples.

Results

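Neat1 and 6 genes beside it on mouse chromosome 19 (Ltbp3, Malat1, Frmd8os, Frmd8, Slc25a45 and Tigd3) were followed in the frontal cortex of WT and Neat1-/- mice. They were taken by position, within about 0.1 Mb of Neat1, and were chosen on measured values, since differences between the genotypes at this locus were known when the list was made. The 7 genes are 7 of the 43629 in the deposited counts, and all 7 were among the 19753 genes that passed a filter on low counts. Frmd8os passed it only through its counts in Neat1-/- mice. RNA-seq libraries came from 5 WT mice, aged 2, 2, 3, 4 and 4 months, and from 4 Neat1-/- mice, aged 3, 3, 4 and 2 months in the order of their replicate numbers 1, 3, 4 and 5. All mice were female and labelled C57BL/6. The Neat1-/- allele carries lacZ followed by polyadenylation signals, placed just downstream of the transcription start of Neat1. The inserted lacZ has no entry among the genes counted here.

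Neat1 is a long noncoding RNA that stays in the nucleus and forms the scaffold of paraspeckles, bodies built around RNA-binding proteins such as Nono, Sfpq and Pspc1. It is made as a short polyadenylated transcript and as a long one that ends without a poly(A) tail, and paraspeckles need the long one. Malat1, transcribed from the same strand further along the chromosome, is among the most abundant nuclear RNAs of neurons and gathers at nuclear speckles. RNase P cuts the long Neat1 and the Malat1 transcripts at their 3′ ends, and a triple helix of U-rich elements and an A-rich tract protects the ends that remain. Frmd8 encodes a protein that binds the iRhoms and keeps the ADAM17 sheddase at the cell surface, and Frmd8os is the antisense RNA named after it. Ltbp3 encodes a latent TGF-beta binding protein, Slc25a45 a member of the mitochondrial carrier family, and Tigd3 a protein derived from a DNA transposase.

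In genomic order (GRCm38, GENCODE), Ltbp3 (ENSMUSG00000024940, + strand) lies at chr19:5740904-5758532, Malat1 (ENSMUSG00000092341, - strand) at chr19:5795690-5802672 and Neat1 (ENSMUSG00000092274, - strand) at chr19:5824708-5845478. On the other side of the Neat1 start, Frmd8os (ENSMUSG00000043488, + strand) lies at chr19:5845623-5851388, Frmd8 (ENSMUSG00000024816, - strand) at chr19:5849702-5875274, Slc25a45 (ENSMUSG00000024818, + strand) at chr19:5877808-5885878 and Tigd3 (ENSMUSG00000044390, - strand) at chr19:5891138-5894149. The start of Frmd8os is 145 bases from the start of Neat1 and points away from it, with 144 bases between the 2 genes. Frmd8os then runs into the far end of Frmd8, whose start is 29796 bases from that of Neat1. The exons of Frmd8os cover 612 bases, of which 388 (63.4%) lie opposite exon sequence of Frmd8, while they take up only 7.63% of the exon bases of Frmd8. The remaining 224 bases are its 2 alternative first exons. The downstream one is shown here with the first bases of Neat1, since the insertion of the allele lies just downstream of that start of Neat1.

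Frmd8os, downstream first exon, chr19:5848508-5848603, + strand: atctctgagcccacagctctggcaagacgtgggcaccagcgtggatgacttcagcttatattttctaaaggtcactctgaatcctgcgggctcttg
Neat1, first 120 bases, chr19:5845359-5845478, - strand: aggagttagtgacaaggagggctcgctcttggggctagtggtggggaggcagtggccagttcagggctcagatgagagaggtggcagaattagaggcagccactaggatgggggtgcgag

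The start of Frmd8os that lies 145 bases from that of Neat1 belongs to its other first exon (chr19:5845623-5845750), not shown here. That start and the start of Neat1 face away from each other. Whether reads were counted by strand is not given in the sources used here. Without strand, reads of the shared 388 bases could not be told apart between Frmd8os and Frmd8. The limit is wider than these bases, as the spans of the genes overlap by 1687 bases, all inside a Frmd8 exon of 3041 bases. Reads from the + strand in that exon, outside the exons of Frmd8os, could then be counted on Frmd8. The share of such reads was not tested. In these counts, of 174 gene models with every exon inside an exon of a gene on the other strand, 33 (19.0%) had any count, against 12 (13.3%) of 90 models inside an exon of a gene on the same strand and 78.8% of 24659 models that share no exon with another gene. Gm37376, a model of 453 exon bases on the + strand inside the exon of Malat1, had 0 counts in all 9 libraries, beside 403537 to 726440 counts per library on Malat1. Gm27694, Gm27533, Gm27505 and Gm28006, inside Malat1 or Neat1 and on the same strand as these, also had 0. Models at 0 on either strand cannot show whether strand was used.

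In CPM, which are counts per 1000000 of a library's total after TMM scaling, Malat1 was the second most abundant of all genes in WT mice and took 1.07% to 1.37% of the counts of each WT library. It held at least 98.81% of all counts on the 7 genes in every library. The exon length of Frmd8os includes the 388 bases opposite Frmd8, whose reads may not have been counted. Between genes, levels were compared per kb of all exons. On that scale Malat1 stood at 1715 ± 159 CPM per kb in WT mice (SD, n = 5), followed by Neat1 at 3.92 ± 1.11, Frmd8 at 3.03 ± 0.247, Ltbp3 at 1.79 ± 0.237, Tigd3 at 1.37 ± 0.0866, Slc25a45 at 1.12 ± 0.0987 and Frmd8os at 0.0908 ± 0.0536. Neat1 and Frmd8 overlapped between mice in this order, and every other pair of neighbours in it was apart. In Neat1-/- mice the order was Malat1 at 1136 ± 82.3 CPM per kb (SD, n = 4), Frmd8os at 14.6 ± 0.674, Frmd8 at 8.56 ± 0.254, Ltbp3 at 1.45 ± 0.171, Tigd3 at 1.25 ± 0.127, Slc25a45 at 1.08 ± 0.0459 and Neat1 at 0.392 ± 0.0569. Here Ltbp3 overlapped Tigd3 and Tigd3 overlapped Slc25a45. Frmd8os went from the last place in WT mice to the second in Neat1-/- mice, and Neat1 from the second to the last.

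**Figure D1:**
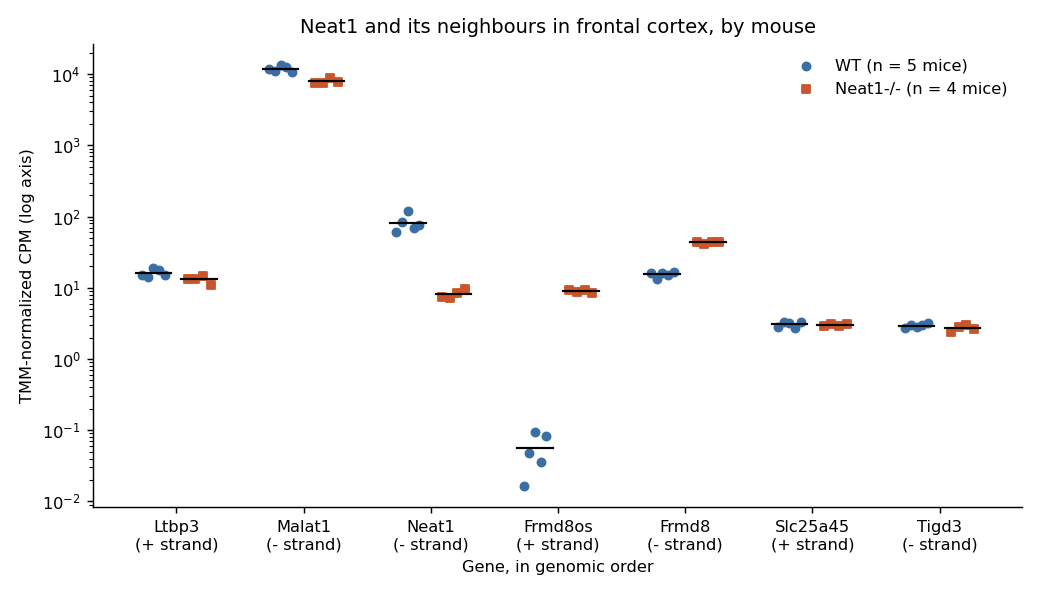
TMM-normalized CPM (log axis) of the 7 genes in genomic order, with the strand of each; points are mice (5 WT, 4 Neat1-/-) and bars are group means. Neat1 and Malat1 lie lower and Frmd8os and Frmd8 higher in all 4 Neat1-/- mice, and the genotypes overlap for Ltbp3, Slc25a45 and Tigd3.

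For 4 of these genes the genotypes did not overlap. Neat1 and Malat1 were lower and Frmd8os and Frmd8 higher in every Neat1-/- mouse than in every WT mouse, and the same 4 of 7 passed an adjusted p of 0.05 from edgeR's quasi-likelihood test with age in months as a covariate. Of all 19753 genes tested, 14 passed (0.0709%), 9 of them higher (0.0456%) and 5 lower (0.0253%) in Neat1-/- mice, and 528 (2.67%) had no overlap. As this contrast was known when the genes were chosen, the differences that follow are a description and carry no test. Their errors are standard errors from the fit over all genes, which had a common biological coefficient of variation of 0.0922.

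Neat1, the gene that carries the insertion, was counted at 60.8, 83.2, 120, 68.1 and 75.3 CPM in WT mice 1 to 5 and at 7.37, 7.11, 8.36 and 9.72 CPM in Neat1-/- mice 1, 3, 4 and 5. The genotypes were far apart, with WT mouse 3 highest, and 10.0% of the mean WT level was still counted in Neat1-/- mice. That residue rested on 407 to 513 counts per Neat1-/- library, against 3725 to 6265 in WT libraries. The log2 fold change was -3.33 (SE 0.189). The counts are given per gene, with the long transcript of 20771 bases and the short one inside it, so the remaining counts could not be placed along the gene or given to one transcript. Neat1 also varied more between WT mice than most genes, with a coefficient of variation of 28.3%, above that of 79.7% of the genes tested (median 8.80%). Much of this spread came from WT mouse 3. The SD was 23.0 CPM over all 5 WT mice and 11.4 CPM, around a mean of 73.1, without WT mice 3 and 4.

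Malat1 stood at 11856, 11159, 13420, 12723 and 10708 CPM in WT mice 1 to 5 and at 7609, 7624, 8793 and 7705 CPM in Neat1-/- mice 1, 3, 4 and 5. The highest Neat1-/- mouse, number 4, lay below the lowest WT mouse, number 5. The mean of Neat1-/- mice was 66.3% of that of WT mice, with a log2 fold change of -0.60 (SE 0.0600). Its fold was far smaller than that of Neat1, but in CPM the mean of Malat1 fell by 4041 and that of Neat1 fell by 73.3. In Neat1-/- mice Malat1 took 0.756% to 0.872% of the counts of a library and was the third most abundant gene. Nothing in the label of the allele names a change to the Malat1 gene, whose span ends 22035 bases from that of Neat1.

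The 3′ ends of both RNAs share the elements that form the protective triple helix. They are shown as a feature that these 2 noncoding RNAs of the locus have in common. A part of these elements in the lower levels of both RNAs in Neat1-/- mice was not tested. Capitals mark the runs of 11 or more bases that occur in both stretches, and the sequences are those of the GENCODE transcripts, which for Malat1 go on for a further 292 bases.

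Neat1, last 110 bases, chr19:5824708-5824817, - strand: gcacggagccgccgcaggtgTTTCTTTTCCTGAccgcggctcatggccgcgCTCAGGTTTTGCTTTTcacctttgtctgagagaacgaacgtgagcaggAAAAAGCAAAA
Malat1, matching 110 bases, chr19:5795982-5796091, - strand: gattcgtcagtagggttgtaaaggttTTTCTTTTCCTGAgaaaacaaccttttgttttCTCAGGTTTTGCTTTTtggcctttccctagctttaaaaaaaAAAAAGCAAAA

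The shared runs were TTTCTTTTCCTGA (13 bases) and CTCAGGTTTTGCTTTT (16 bases), which hold the U-rich elements, and AAAAAGCAAAA (11 bases), the end of the A-rich tract with which the long Neat1 transcript stops. Gm27702, an annotated small RNA that begins with the base after that end, had 4 counts over all 9 libraries.

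On the other side of the Neat1 start, Frmd8os was close to absent from WT cortex. It was counted at 0.0163, 0.0482, 0.0956, 0.0356 and 0.0821 CPM in WT mice 1 to 5, from 1, 3, 5, 2 and 5 counts. In Neat1-/- mice 1, 3, 4 and 5 it stood at 9.21, 8.84, 9.34 and 8.42 CPM, from 592, 506, 573 and 441 counts. All Neat1-/- mice were thus close to each other and far above all WT mice. Over the summed libraries, 2112 counts against 16 gave a ratio of 163-fold, with an exact 95% interval of 100.3 to 286 that covers counting error only. The fitted log2 fold change of 7.30 (SE 0.205) rests on these few WT counts.

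Frmd8, which is read from the strand opposite to Frmd8os, stood at 16.1, 13.4, 16.1, 15.0 and 16.4 CPM in WT mice 1 to 5. In Neat1-/- mice 1, 3, 4 and 5 it stood at 44.2, 41.6, 44.5 and 43.7 CPM. The genotypes did not come near each other, and within each of them the mice were alike, with a coefficient of variation of 8.15% in WT and 2.96% in Neat1-/- mice. In Neat1-/- mice the mean was 2.83-fold higher (log2 fold change 1.50, SE 0.0566). In counts, Frmd8 went from 832 to 1001 per library in WT mice to 2287 to 2843 in Neat1-/- mice. Whether some of these reads came from the + strand was not tested, as the use of strand in counting was not given. Per kb of exon, Frmd8os was 1.60 to 1.76 times the level of Frmd8 in each Neat1-/- mouse and at most 0.0493 times in each WT mouse. If reads of the shared 388 bases were left out, the exon length of 612 bases would understate the level of Frmd8os.

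Slc25a45 and Tigd3, the next genes beyond Frmd8, had levels that overlapped between the genotypes. Slc25a45, of the mitochondrial carriers, was at 2.84, 3.31, 3.23, 2.74 and 3.30 CPM in WT mice 1 to 5 and at 2.88, 3.06, 2.88 and 3.13 CPM in Neat1-/- mice 1, 3, 4 and 5 (log2 fold change -0.05, SE 0.115). All 4 Neat1-/- mice lay inside the range of the WT mice. Tigd3 was at 2.73, 3.02, 2.81, 2.99 and 3.20 CPM in WT mice and at 2.38, 2.81, 3.01 and 2.60 CPM in Neat1-/- mice in the same order (log2 fold change -0.13, SE 0.117). Of its Neat1-/- mice, numbers 1 and 5 lay below all WT mice. Both rested on 136 to 206 counts per library.

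Ltbp3, the farthest gene on the Malat1 side, was at 15.0, 14.0, 19.1, 17.7 and 15.2 CPM in WT mice 1 to 5 and at 13.4, 13.5, 14.8 and 11.1 CPM in Neat1-/- mice 1, 3, 4 and 5. The genotypes overlapped through WT mouse 2 and Neat1-/- mouse 4, while WT mice 3 and 4 were highest and Neat1-/- mouse 5 lowest. The log2 fold change was -0.30 (SE 0.0839).

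**Figure D2:**
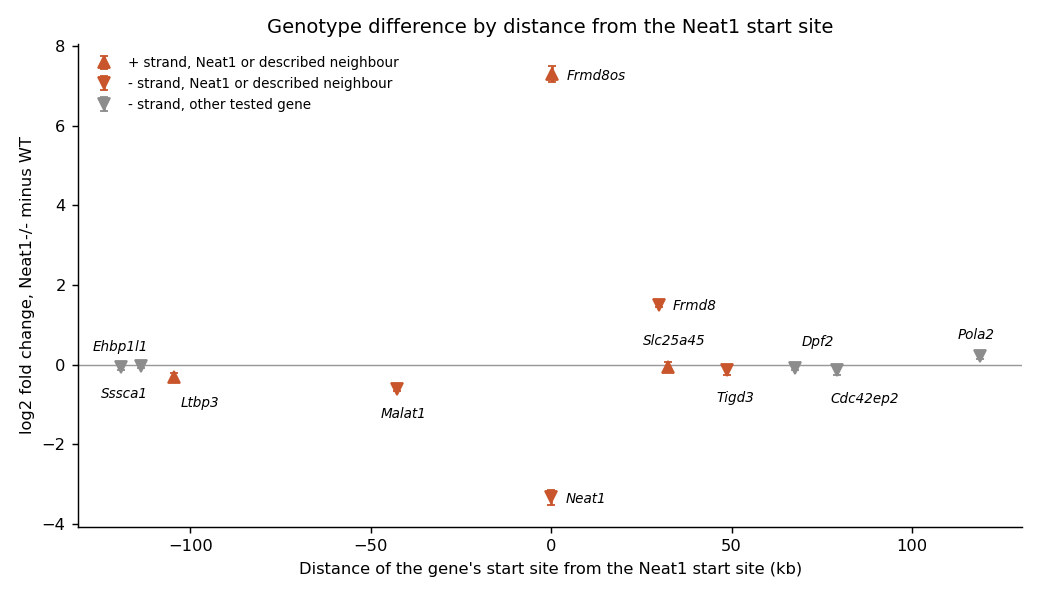
Genotype difference (log2 fold change, Neat1-/- minus WT) of 12 tested genes within 0.1 Mb of Neat1 against the distance of their start sites from that of Neat1 in kb; triangles point up for the + and down for the - strand, and bars are standard errors. Frmd8os at 7.30, Frmd8 at 1.50, Neat1 at -3.33 and Malat1 at -0.60 stand farthest off the line. Ltbp3 lies at -0.30 (SE 0.0839), Tigd3 at -0.13 and Slc25a45 at -0.05. The 5 other genes shown (grey) lie between -0.14 and 0.23.

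The 4 genes with no overlap lay on both strands and on both sides of the Neat1 start. Both RNAs that were lower are read from the - strand, and of those that were higher Frmd8os is read from the + and Frmd8 from the - strand. Slc25a45 starts closer to the start of Frmd8 than Frmd8 does to Neat1, and its genotypes overlapped. Within 0.1 Mb of Neat1 the annotation holds 16 further models, of which 14 had an entry in the counts and 6 could be tested, among them Ehbp1l1, Sssca1, Dpf2, Cdc42ep2 and Pola2. The adjusted p of these 6 from edgeR was 0.575 to 0.953, and 0 were called by edgeR, DESeq2 or limma. Pola2, a subunit of the DNA polymerase that makes primers, was the 1 of 6 with an unadjusted p under 0.05, against 4.27% of all genes in that direction, at 4.67 ± 0.212 CPM in WT (SD, n = 5) and 5.48 ± 0.358 in Neat1-/- mice (SD, n = 4). Its genotypes did not overlap, and the log2 fold change was 0.23 (SE 0.0889). Among the others, Cdc42ep2 had a log2 fold change of -0.14 (SE 0.116), Dpf2 of -0.07 (SE 0.0574), Ehbp1l1 of -0.06 (SE 0.0632) and Sssca1 of -0.02 (SE 0.0733). The 8 models that could not be tested had at most 7 counts in a library, and 5 of them, each inside an exon of Malat1 or Neat1 (Gm27694, Gm37376, Gm27533, Gm27505 and Gm28006), had 0 in all libraries. Of Gm16538, Fam89b and Gm27702, the mean levels in WT mice were 0.0536, 0.0166 and 0.0142 CPM.

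WT mice 3 and 4, whose levels of Malat1 and Ltbp3 were the highest, also stood apart from the other libraries by the share of counts in gene models typed TEC (transcripts to be experimentally verified) or sense intronic. That share was 0.234% and 0.212% in these mice, 0.113% to 0.129% in the other 3 WT mice and 0.119% to 0.136% in Neat1-/- mice. Within the Neat1-/- mice, number 4 had the highest share and the highest Malat1 and Ltbp3. The part of this in the levels was not tested. Without WT mice 3 and 4, the WT mean of Neat1 was 73.1 ± 11.4 CPM (SD, n = 3) and 8.98-fold above that of Neat1-/- mice. Malat1 then stood at 11241 ± 578 CPM, 1.42-fold above Neat1-/- mice and apart from all of them. Ltbp3 then stood at 14.7 ± 0.647 CPM, with a log2 fold change of -0.20 in place of -0.30, and still overlapped.

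**Figure D3:**
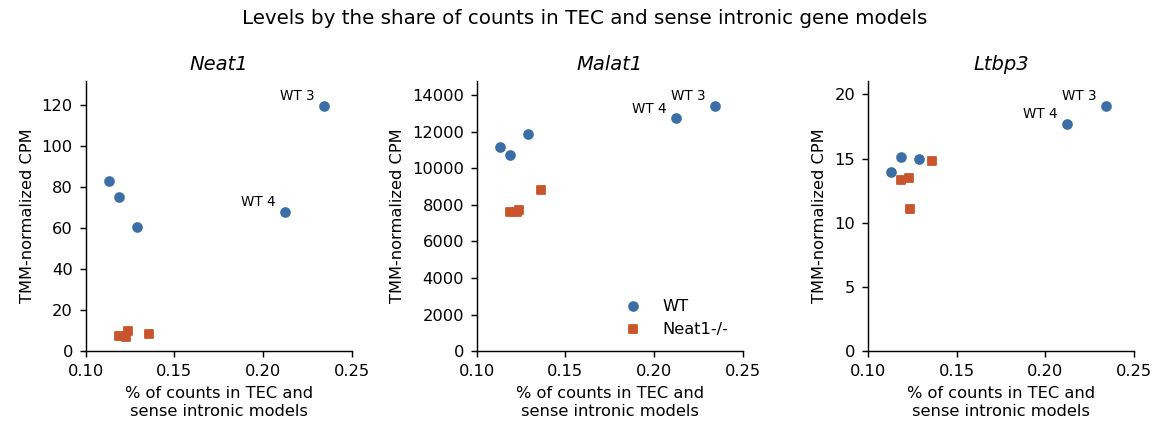
Levels of Neat1, Malat1 and Ltbp3 (TMM-normalized CPM) against the percent of counts in TEC and sense intronic gene models, 1 point per mouse. WT mice 3 and 4, at 0.234% and 0.212%, have the highest Malat1 and Ltbp3, and the 4 Neat1-/- mice (squares) lie below all WT mice for Neat1 and Malat1.

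The label of the tissue was set against markers of its cells. All 7 listed markers of cortical excitatory neurons were detected, with Slc17a7, the vesicular glutamate transporter of these neurons, at 770.4 to 936 CPM. Their summed level was 1251 to 1398 CPM in WT and 1298 to 1341 in Neat1-/- mice. Neat1 is strongly expressed in oligodendrocytes, whose 10 listed markers summed to 2324 to 3673 CPM in WT and 1977 to 3019 in Neat1-/- mice, so the genotypes overlapped. The 7 markers listed for their progenitors summed to 202 to 229 CPM in WT mice. In Neat1-/- mice 1, 3, 4 and 5 they summed to 205, 188, 188 and 201 CPM, so 3 of the 4 lay below all WT mice. Among these 7 are Olig2 and Sox10, which the authors list as markers of both progenitors and oligodendrocytes. WT mouse 3, with the highest Neat1, was not highest in the 10 oligodendrocyte markers (3063 CPM). Its 5 markers of choroid plexus summed to 113 CPM against 14.5 to 25.6 in the other libraries. Markers of meningeal fibroblasts summed to 31.7 to 233 CPM in WT and 74.1 to 105 in Neat1-/- mice. No marker of the 12 lists was at 0 in all libraries. The part of these cells in the levels of the 7 genes was not tested, and in bulk tissue fewer cells of a type and less RNA per cell cannot be told apart.

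The ages of the mice gave a comparison that the choice of the genes had not used. None of the 7 genes changed with age at an adjusted p of 0.05 in edgeR's fit with genotype (adjusted p = 0.82 to 0.971). Of all genes tested 0% passed (4 genes by DESeq2, 1 by limma), while 1180 (5.97%) had an unadjusted p under 0.05. Their slopes lay between -0.03 and 0.13 on the log2 scale per month. Ltbp3 had the largest, 0.13 (SE 0.0515, edgeR adjusted p = 0.82), and was the 1 of 7 with an unadjusted p under 0.05. The Ltbp3 slope was 0.11 without WT mice 3 and 4. The slopes were 0.11 (SE 0.121) for Frmd8os, 0.07 (SE 0.0702) for Tigd3, 0.04 (SE 0.0362) for Malat1, -0.03 (SE 0.0700) for Slc25a45 and -0.03 (SE 0.106) for Neat1. For Frmd8 it was 0.03 (SE 0.0350). With 9 mice over 2 months, slopes of this size could not be told from 0.

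**Figure D4:**
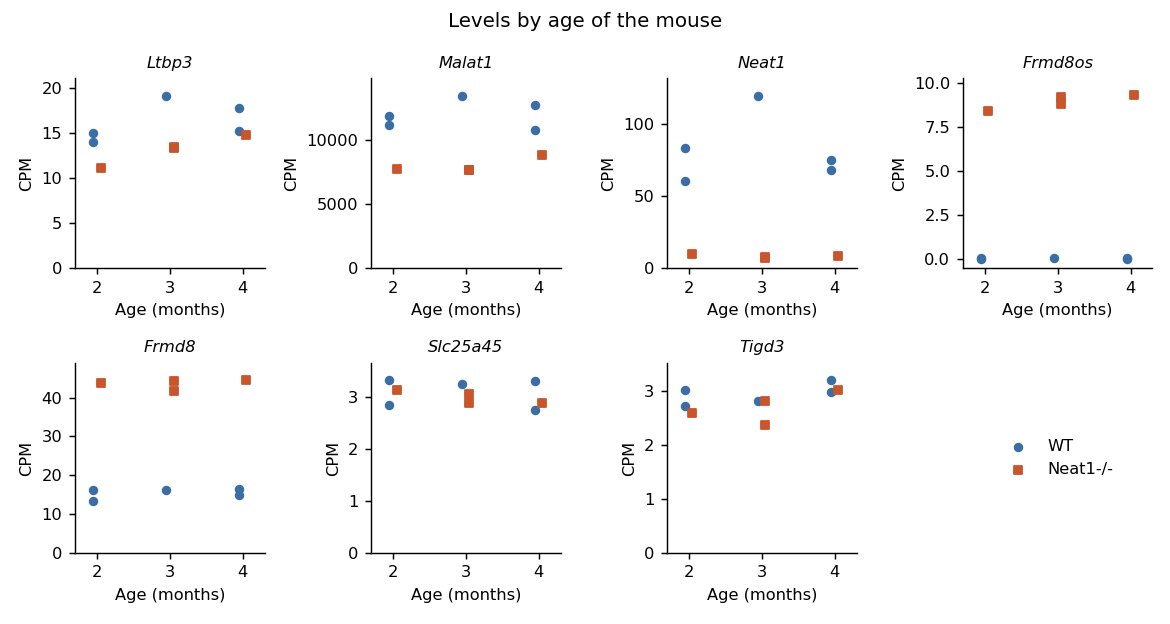
TMM-normalized CPM of the 7 genes by age of the mouse in months, 1 point per mouse, with WT as circles and Neat1-/- as squares shifted slightly sideways. The genotypes of Neat1, Malat1, Frmd8os and Frmd8 are apart at each age, and the slopes on the log2 scale lie between -0.03 and 0.13 per month.

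The proteins and processes that go with these genes were described by lists of their other members, written with earlier results of these data known. Of 31 genes of paraspeckle proteins, 0 were called by edgeR, DESeq2 or limma, 3 had an edgeR p under 0.05 before adjustment (2 of them higher, 1 lower, against 4.27% and 4.03% of all genes), and the median log2 fold change was 0.03 (all genes: -0.00022). The most abundant of them were Matr3, a nuclear matrix protein, at 597 ± 14.3 CPM in WT (SD, n = 5) and 619 ± 8.37 in Neat1-/- mice (SD, n = 4), and Hnrnpk, which takes part in forming the long Neat1, at 306 ± 17.3 and 319 ± 4.08. Both had log2 fold changes of 0.05 (SE 0.027) and 0.06 (SE 0.038).

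Of 12 genes that mature or protect the 3′ ends of Neat1 and Malat1, 0 were called by edgeR, DESeq2 or limma, and 1 was lower with an unadjusted p below 0.05, against 4.03% of all genes in that direction. The median log2 fold change was -0.01. Mettl16, an RNA methyltransferase that binds the Malat1 triple helix, had a log2 fold change of -0.16 (SE 0.046, edgeR adjusted p = 0.47) and Pop5, a subunit of RNase P, one of 0.05 (SE 0.045). Of 14 other long noncoding RNAs listed, 12 had an entry in the counts and were tested. Of these 12, 0 were called by any of these tools. Before adjustment 1 was higher and 1 lower at an edgeR p under 0.05, against 4.27% and 4.03% of all genes. The median log2 fold change of the 12 was -0.05. Meg3, an imprinted RNA of neurons, had a log2 fold change of -0.05 (SE 0.076) and Snhg11 one of -0.02 (SE 0.067).

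In the iRhom and ADAM17 pathway, in which Frmd8 acts, 10 of 13 genes could be tested and 0 passed by edgeR, DESeq2 or limma, or at an unadjusted p under 0.05 from edgeR. Their log2 fold changes lay between -0.11 and 0.04 with a median of 0.00, beside 1.50 for Frmd8. Timp3, the tissue inhibitor of ADAM17, had one of 0.02 (SE 0.063) and Egfr, the receptor of several shed ligands, one of 0.04 (SE 0.056). Of 18 genes of latent TGF-beta, the partners of Ltbp3, 17 could be tested and 0 passed, with 1 higher at an unadjusted p under 0.05 (4.27% of all genes) and a median of 0.04. Itgav and Itgb8, integrin subunits that activate latent TGF-beta, had log2 fold changes of 0.03 (SE 0.036) and 0.06 (SE 0.05). Of 46 other mitochondrial carriers 41 could be tested and 0 passed, with 1 higher at an unadjusted p under 0.05 (the same 4.27% of all genes) and a median of 0.02. Slc25a4, the ADP and ATP exchanger, and Slc25a3, the phosphate carrier, both had log2 fold changes of 0.02 (SE 0.033 and 0.034). Of 7 other genes derived from transposases 6 could be tested, 0 of them passed or had an unadjusted p under 0.05, and the median was 0.01. Cenpb, which binds centromeres, had a log2 fold change of 0.06 (SE 0.034) and Pogk one of -0.04 (SE 0.034). DESeq2 and limma called none of the genes of these last 3 lists either.

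The genes most like Neat1 over the 9 libraries, by Pearson correlation of log2 CPM, were Cd6 (r = 0.983), Malat1 (0.949), Myo18b (0.946), 4930577N17Rik (0.946) and Gm16151 (0.940). Cd6, also on chromosome 19 and known as a receptor of T cells, had a mean of 3.68 CPM in WT and 0.424 in Neat1-/- mice. This order follows the genotypes, as 5 points are WT and 4 Neat1-/- mice. With each mouse taken as its deviation from the mean of its genotype, the leading genes were others, among them Ppargc1a (r = 0.951), Hmcn1 (0.939), Wipf3 (0.926) and Tlr12 (0.925), and r with Neat1 was 0.39 for Malat1, 0.71 for Frmd8os, 0.60 for Slc25a45, 0.20 for Ltbp3, 0.06 for Frmd8 and -0.01 for Tigd3. Malat1 thus followed Neat1 between the genotypes, a contrast known when the genes were chosen, and less closely within them. The r of Frmd8os within genotypes includes WT libraries with only 1 to 5 counts. All of these r are descriptions over 9 libraries, which share depth and preparation. Within genotypes, 13 of all genes had an r of 0.9 or more.

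In the normalized log2 values that the authors deposited, 6 of the 7 genes were listed and Frmd8os was not. The genotypes were apart there for Neat1, Malat1 and Frmd8, with differences of means (Neat1-/- minus WT) of -3.20, -0.50 and 1.50. They were apart for Ltbp3 as well (WT 3.63 to 3.77, Neat1-/- 3.33 to 3.57) and for Tigd3 (WT 1.28 to 1.40, Neat1-/- 0.98 to 1.25), both of which overlapped in CPM. How many of all genes were apart in the deposited values was not counted, so this is not read as particular to the locus. These values differ from log2 CPM almost wholly by 2 patterns over the libraries, 1 with 80.7% of the variance and weights of 0.64 and 0.59 on WT mice 3 and 4, and 1 with 19.2% that orders the mice by age. For Ltbp3 in WT mice 3 and 4, the deposited values were 3.77 and 3.63 where log2 CPM was 4.26 and 4.15. Slc25a45 overlapped in both.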

How the data were processed

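RNA-seq of the frontal cortex of 5 WT and 4 Neat1-/- mice was deposited as raw counts per Ensembl gene and as normalized log2 values. Total RNA was depleted of ribosomal RNA. For the counts that the authors deposited, the submitters' processing notes name STAR 2.5.0, HTSeq 0.8.0 and mm10, while the supplementary methods name TopHat and Bowtie with HTSeq in its strict intersection mode, which leaves out reads lying in 2 genes. The authors' log2 values were TMM-normalized log2 CPM with covariates removed, for 13456 of 43629 genes. Names, exons and transcripts came from GENCODE (GRCm38), the build of mm10.

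Libraries held 51276067 to 64648856 counts. The counts were used as deposited, and 0 entries named no gene. Genes kept by filterByExpr were fitted with edgeR 4.0.16 (R 4.3.3; glmQLFit, glmQLFTest) with TMM factors, genotype and age in months, and adjusted after Benjamini-Hochberg at 0.05. Standard errors are the log2 fold change divided by the root of F. Levels are CPM, and CPM per kb of exon union between genes. Correlations used log2 CPM with a prior count of 2. The fit was tested on simulated data. Alternatives were DESeq2 1.42.0, limma 3.58.1 (voomWithQualityWeights), other scalings, filters and age terms, a replicate block and each library left out. Figures were drawn with Matplotlib 3.10.9 (Python 3.11.15), and tables were made with pandas 2.3.3, NumPy 2.4.6 and SciPy 1.17.1. Named are the 7 genes, the other models with counts within 0.1 Mb, the called or else the 2 most abundant genes of each list and the 5 genes most like Neat1 by each measure. The genes and lists were chosen with earlier results of these data known. Results on a few items that these rules would name are not reported here.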

Additional observations from a re-analysis of the deposited data

Results flagged for a closer look

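Malat1 in Neat1-/- mouse 4 stood at 8793 CPM, away from the other 3 Neat1-/- mice at 7609 to 7705 CPM, and its gap took 0.919 of the range of the group. It lay below all WT mice. Of 14 groups looked at in this way (7 genes in 2 genotypes) this was the only one past the limit, and chance flags about 1 in 20.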

How the results depend on the processing

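The log2 fold changes of all 7 genes kept within 1 SD between mice of the values given under all 20 alternatives, and the same 4 genes were called in each. Leaving out 1 library at a time, they ranged from -3.45 to -3.15 for Neat1, -0.66 to -0.56 for Malat1, 7.07 to 7.55 for Frmd8os, 1.45 to 1.52 for Frmd8, -0.37 to -0.24 for Ltbp3, -0.10 to -0.01 for Slc25a45 and -0.17 to -0.08 for Tigd3. Without WT mice 3 and 4 they were -0.51 for Malat1, -0.20 for Ltbp3 and -0.18 for Tigd3. The number of all genes called between the genotypes, 14, was 76 with DESeq2, 22 with limma, 76 without the filter on low counts and 8 to 30 leaving out 1 library (9 without WT mouse 1, 30 without WT mouse 5, 8 without Neat1-/- mouse 1). For age, 0 genes became 4 with DESeq2, 1 with limma, 15 without the filter, 0 to 1 leaving out 1 library (1 without WT mouse 3) and 2 without WT mice 3 and 4, a choice made with results known, and none of the 7 genes was called for age in any of these. Of the lists, 1 gene was called without the filter and without WT mouse 5, Rbm3 of the paraspeckle list (log2 fold change 0.35 and 0.46, adjusted p = 0.0127 and 0.0284 from edgeR), named after its values were seen, and 0 to 1 over the libraries left out. The cause was not tested. With a replicate block, 15 genes were called. Mice with the same number correlated at -0.077 to 0.137 in their deviations, so the numbers were not taken as pairs. Per kb of the longest transcript in place of all exons, Ltbp3 was at 2.83 and 2.30 CPM in WT and Neat1-/- mice. Frmd8 was then at 3.42 and 9.66 CPM, and in Neat1-/- mice Frmd8os was at 17.3 and Slc25a45 at 1.15 CPM. Which neighbours in the order of levels overlapped was described per kb of all exons only and may differ with this length. By Spearman correlation, 0 and 1 of the 5 genes most like Neat1 were again among the first 5, for levels and for deviations. The few WT counts limit the fold of Frmd8os.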
